A study of Mus musculus with 20 samples.

Results

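The lipases and zymogen granule proteins of the exocrine pancreas were examined in mice that lack inceptor and in wild-type mice around birth. The set lists 10 genes by symbol, chosen by their role in the granule and with earlier results of these arrays known, and their level in these data decided which could be described: the enzymes and cofactor Pnlip, Pnliprp1, Pnliprp2, Cel, Clps and Pla2g1b, and the granule proteins Gp2, Sycn, Zg16 and Dmbt1. Each gene was read from the probe set that carries its symbol alone and, where there are several, has the highest mean. Of the 10, 9 had such a probe set. Pnlip, the classical pancreatic triglyceride lipase, is not analysed here. Deposited log2 signals stop at a ceiling of 19.932, and 4 members sat at it on every array and were set aside. That left 5 members below the ceiling on at least 1 array, and 4 below it on every array, of 30063 genes with a probe set of their own.

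Pancreas RNA was hybridised to 20 Affymetrix arrays, all from C57BL/6J mice. The groups were Iir -/- knockouts at P0 (n = 6), wild type (Iir +/+) at P0 (n = 5), knockouts at E18.5 (n = 5) and wild type at E18.5 (n = 4). E18.5 is a late embryonic day and P0 the day of birth. P0 pups had been starved for 5 h and the mothers of E18.5 embryos for 2 h, so age and starvation cannot be told apart. Iir is the older name of Elapor1, which encodes inceptor, a transmembrane protein that restrains insulin receptor signalling. The labels describe the allele no further, give the sex as not determined, and do not state if arrays come from different animals. The p-values therefore rest on the variation among these arrays, which may be technical.

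Acinar cells make up most of the exocrine pancreas. They package digestive enzymes, many as inactive zymogens, into granules that are held at the cell apex and released into the ducts after a meal. Lipases split dietary fats into fatty acids that the gut can absorb, and the granule proteins take part in packing, coating and releasing this cargo. In rodents, the set of lipases that a pancreas makes shifts between suckling and weaning.

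Promoters of 4 members are shown because their genes differ in what the arrays could measure. Cel stayed at the ceiling, Pnliprp2 lay just under it, and Gp2 and Pla2g1b were measured over a wide range. Each sequence is the stretch of 250 bases before the annotated RefSeq start on GRCm38.p6, written on the strand of the gene. Of the 10 members, 7 had an entry. Capitals mark matches to CACCTG, an E-box, and to TTTCCCA, both searched on both strands, and to TATAAA on the gene strand. E-boxes and TTTCCCA are the paired parts of sites that the acinar regulator PTF1 is known to bind, and TATAAA is a core promoter motif. No matches overlapped. The Pla2g1b window lies at chr5:115465892-115466141 on the plus strand, Pnliprp2 at chr19:58759473-58759722 on the plus strand, Gp2 at chr7:119459273-119459522 on the minus strand and Cel at chr2:28563404-28563653 on the minus strand.
Cel: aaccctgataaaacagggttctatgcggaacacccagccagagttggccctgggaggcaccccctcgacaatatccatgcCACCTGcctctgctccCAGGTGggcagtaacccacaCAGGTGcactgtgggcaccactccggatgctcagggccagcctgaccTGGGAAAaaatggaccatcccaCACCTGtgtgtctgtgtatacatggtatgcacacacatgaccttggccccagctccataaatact
Gp2: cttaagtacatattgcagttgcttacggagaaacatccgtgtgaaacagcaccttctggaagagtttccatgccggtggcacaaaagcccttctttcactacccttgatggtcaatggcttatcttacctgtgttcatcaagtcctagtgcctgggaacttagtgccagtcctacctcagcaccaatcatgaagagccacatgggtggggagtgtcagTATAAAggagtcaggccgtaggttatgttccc
Pnliprp2: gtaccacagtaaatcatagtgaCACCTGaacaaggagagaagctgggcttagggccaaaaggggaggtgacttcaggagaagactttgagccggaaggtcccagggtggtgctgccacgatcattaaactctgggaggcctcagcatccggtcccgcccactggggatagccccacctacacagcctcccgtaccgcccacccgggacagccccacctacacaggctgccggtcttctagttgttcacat
Pla2g1b: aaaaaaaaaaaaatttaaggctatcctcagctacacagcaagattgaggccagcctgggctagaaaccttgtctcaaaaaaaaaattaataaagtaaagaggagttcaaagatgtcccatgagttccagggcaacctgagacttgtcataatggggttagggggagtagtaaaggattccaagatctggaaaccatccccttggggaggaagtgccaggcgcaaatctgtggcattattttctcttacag
Cel held 4 matches to CACCTG, which began 170, 154, 134 and 65 bases before the start, and 1 to TTTCCCA at 87 bases. Gp2 held TATAAA 32 bases before its start, and Pnlip, which is not shown, held it at 30 bases. Pnliprp2 held a single CACCTG at 228 bases. No match was found in the windows of Pla2g1b, Pnliprp1 and Sycn. Among 32851 windows of this length, 17.2% held CACCTG, 6.82% held TTTCCCA and 7.59% held TATAAA. A match describes letters in a window and does not show a bound site.

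Elapor1 itself was lower on every knockout array. At P0 it averaged 6.05 ± 0.30 in knockouts and 11.54 ± 0.35 in wild type (log2 signal, SD), and at E18.5 it averaged 6.31 ± 0.30 in knockouts and 11.86 ± 0.22 in wild type. The pancreas label was checked against acinar genes: of 21 other acinar enzymes with a probe set, 12 sat at the ceiling on all 20 arrays. Array medians ran from 4.81 to 4.94, and 261 to 278 probe sets per array were at the ceiling. Differences were tested with limma over 17993 genes together, with Benjamini-Hochberg adjustment over all of them, and a gene is called at an adjusted p under 0.05. In whole pancreas, fewer cells of a type and less RNA per cell cannot be told apart.

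Markers of neighbouring tissue varied between arrays. The mean log2 signal of 5 goblet cell genes, which mark mucus cells of the gut, was 6.54 to 6.97 in P0 knockouts, 6.12 to 7.01 in P0 wild type, 7.51 to 13.41 in E18.5 knockouts and 7.13 to 11.12 in E18.5 wild type. Goblet means above 9 occurred on E18.5 knockout arrays 1, 2 and 4 and on E18.5 wild-type array 4. Means of 7 intestinal epithelium genes did not follow the same order. They were highest on E18.5 knockout array 2 (8.594) and E18.5 wild-type array 4 (7.201). On E18.5 knockout arrays 1 and 4, which had the highest goblet means, they were 6.308 and 6.575. The source of the goblet signal was not tested. Means of 12 liver genes were 8.02 to 11.16 in P0 knockouts, 6.56 to 9.64 in P0 wild type, 7.85 to 10.29 in E18.5 knockouts and 8.10 to 9.86 in E18.5 wild type. Zg16 and Dmbt1 are also made by gut epithelium, and the part of gut tissue in their signal was not tested beyond the fits given below. Results are given with and without the arrays with goblet means above 9 where that changed a call.

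**Figure D1:**
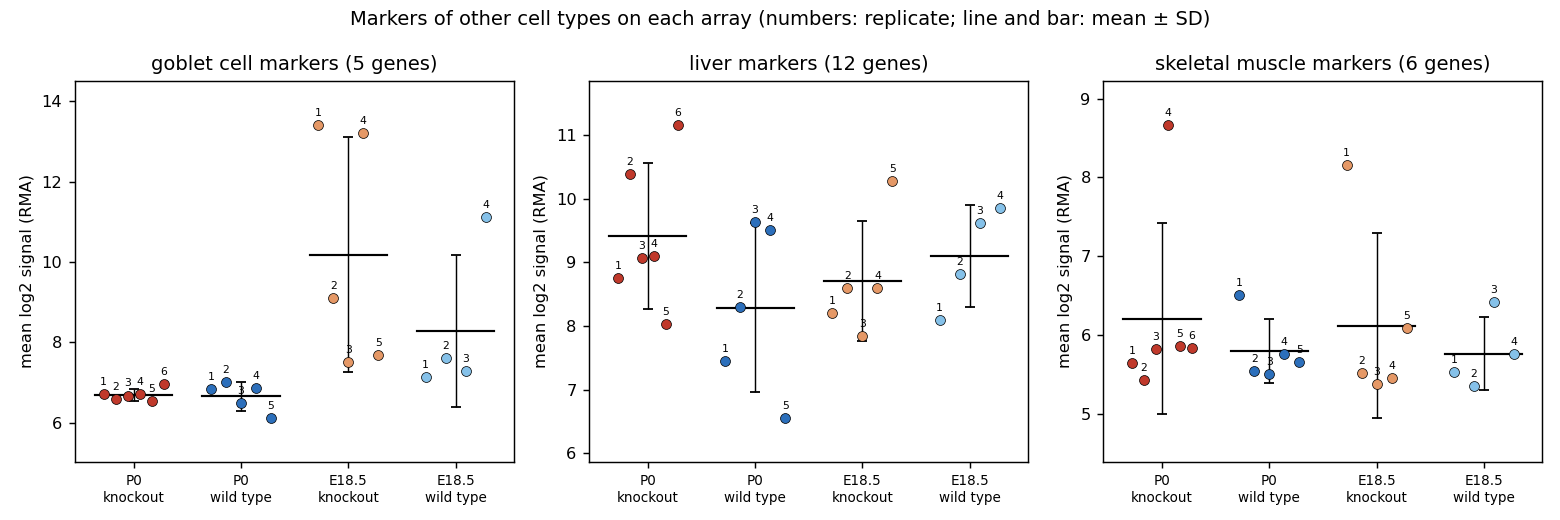
Mean log2 signal of goblet cell, liver and skeletal muscle markers on each array, by group, with the replicate number above each point and lines and bars for the group mean ± SD. Goblet means pass 9 on 4 E18.5 arrays only, and muscle means pass 7 on P0 knockout array 4 and E18.5 knockout array 1.

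Of the 6 listed genes of lipid digestion, colipase included, 3 were too bright to compare. Pnliprp1, a close relative of the classical lipase with little known lipase activity, was at 19.932 on all 20 arrays. The same value was recorded on every array for Cel, the bile salt-stimulated lipase, and for Clps, colipase, which anchors pancreatic lipase to fat droplets in the presence of bile salts. Sycn, syncollin, which sits on the inner face of the granule membrane, was at it on every array too. Differences in these 4 genes are hidden by the ceiling, and nothing can be said of them in either direction.

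Zg16, a lectin of the granule matrix, was the member nearest to that limit without being set aside. It was at the ceiling on 17 arrays, and below it on P0 knockout arrays 1, 3 and 4, at 19.902, 19.855 and 19.829. All 5 P0 wild-type arrays, all 5 E18.5 knockout arrays and all 4 E18.5 wild-type arrays were at the ceiling. The drop below it was small beside the spread (-0.035 ± 0.033 SE at P0, adjusted p = 0.786 by limma), and the ceiling bounds what could be seen.

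Pla2g1b, the secreted pancreatic phospholipase A2 that is released as an inactive precursor and cleaves dietary phospholipids, had the largest genotype difference of the 5 measured members at P0. Its log2 signal was 14.78, 14.21, 14.01, 14.10, 14.94 and 13.97 on the P0 knockout arrays, against 16.09, 16.71, 14.70, 16.73 and 16.41 on the P0 wild-type arrays. The knockout arrays lay close together. Of the wild-type arrays, 4 stood above every knockout array, and array 3 lay among the knockouts, so the groups overlapped. The means were 14.33 ± 0.42 in knockouts and 16.13 ± 0.84 in wild type (SD), a level 3.47-fold lower in knockouts and below the wild-type mean on 6 of 6 arrays. The log2 difference was -1.79 ± 0.32 (SE, 95% interval -2.46 to -1.12).

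This difference missed the call, with an unadjusted p of 2.47e-05 and an adjusted p of 0.0952 by limma. Of all tested genes, 0.0111 percent were called in this comparison, and 1576 of 17993 had an unadjusted p under 0.05. The outcome turned on single arrays. Without P0 wild-type array 3 the difference was -2.15 with an adjusted p of 0.000909, without P0 knockout array 1 it was -1.88 with 0.0366, and without P0 wild-type array 1 it was -1.80 with 0.036. Over the other alternatives at the same threshold, the adjusted p ran from 0.0574 to 0.467. With liver and intestinal means as covariates the difference was -1.67 (adjusted p = 0.106). The set was proposed with this result known, so it is a description and no independent evidence.

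At E18.5, Pla2g1b did not separate the genotypes. Knockout arrays read 13.97, 14.09, 14.77, 14.16 and 15.18, and wild-type arrays read 14.52, 14.85, 14.61 and 15.01. The values were interleaved, with the highest and the 3 lowest all from knockouts. The difference was -0.31 ± 0.35 (adjusted p = 0.993, lower on 3 of 5 arrays), and its 95% interval ran from -1.05 to 0.43. Whether the genotype difference itself changed with age was tested directly, and that change was -1.48 ± 0.48 (unadjusted p = 0.00599, adjusted p = 0.585 by limma), which was not called.

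**Figure D2:**
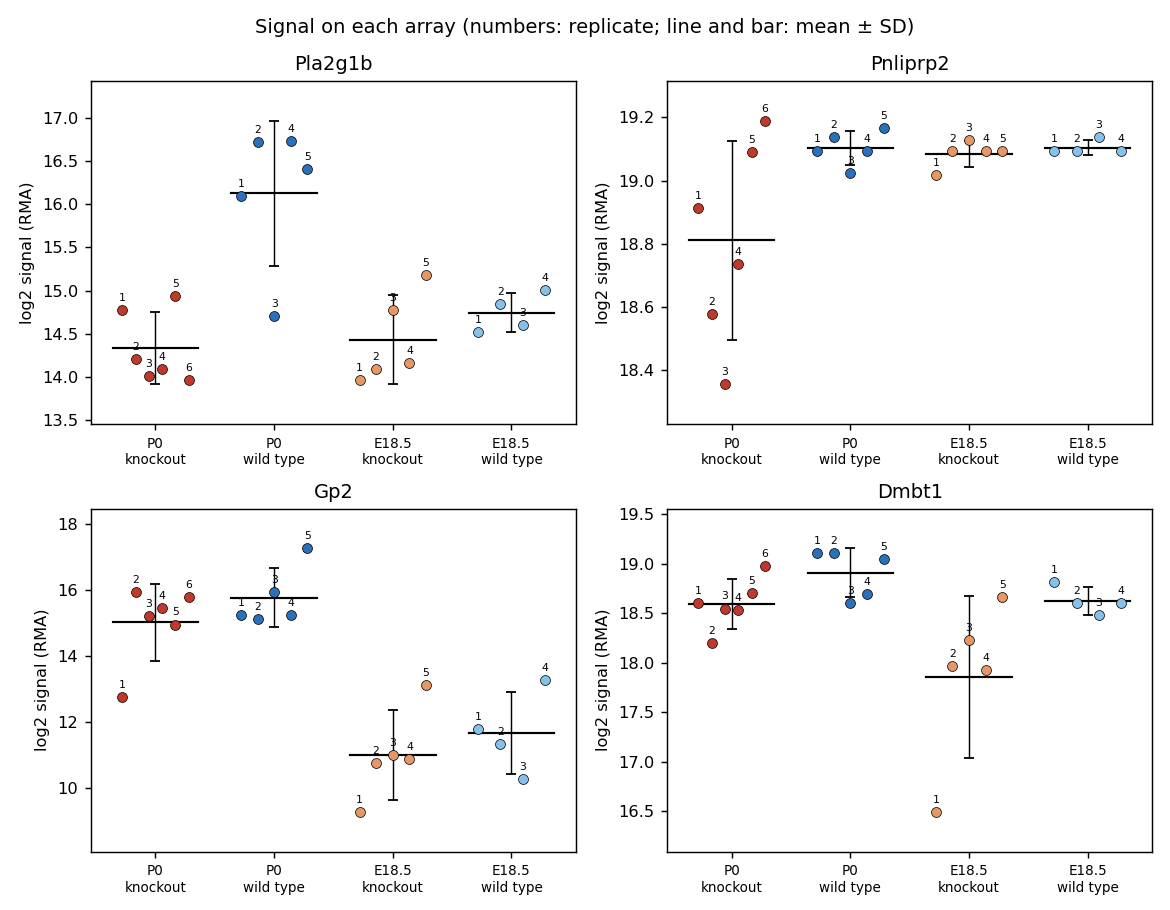
Log2 signal of Pla2g1b, Pnliprp2, Gp2 and Dmbt1 on each of the 20 arrays by group, with replicate numbers above the points and lines and bars for the group mean ± SD; each panel has its own vertical scale. P0 wild-type Pla2g1b lies above P0 knockouts except for array 3, Gp2 is higher at P0 in both genotypes, and Dmbt1 has one low E18.5 knockout array at 16.49.

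With age, Pla2g1b rose in wild type and no rise was called in knockouts. P0 wild type averaged 16.13 and E18.5 wild type 14.75, a log2 difference of 1.38 ± 0.35 (2.6-fold, adjusted p = 0.0219, above the E18.5 mean on 4 of 5 P0 arrays). P0 knockouts averaged 14.33 and E18.5 knockouts 14.43, a difference of -0.10 ± 0.32 (adjusted p = 0.864), with a 95% interval of -0.77 to 0.57. The contrast between these age differences is the same quantity as the one tested above, which was not called. The wild-type call was lost without any one of E18.5 wild-type arrays 1, 2 or 3, at adjusted p = 0.0691, 0.0552 and 0.0583. It was also lost with the wild-type arrays fitted alone (adjusted p = 0.0775) and with the liver and intestinal means (0.0886), the goblet mean (0.0557) or the number in the sample description (0.0782) as covariates. Neither the goblet mean nor that number overlaps between the ages, so fits with either cannot tell age from it.

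Pnliprp2, a lipase with activity on galactolipids and phospholipids that is important for fat digestion in suckling mice, lay close under the ceiling. It had exactly 19.093 on 8 arrays, a plateau of unstated origin that includes 2 P0 wild-type, 3 E18.5 knockout and 3 E18.5 wild-type arrays. P0 knockout arrays read 18.913, 18.578, 18.353, 18.734, 19.091 and 19.190, and P0 wild-type arrays read 19.093, 19.139, 19.024, 19.093 and 19.167. The 4 lowest values of all 20 arrays were P0 knockout arrays 1 to 4, while arrays 5 and 6 lay within the wild-type range or above it. The log2 difference at P0 was -0.29 ± 0.11 (adjusted p = 0.494 by limma, lower on 5 of 6 arrays), which was not called.

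At E18.5, Pnliprp2 was 19.016 to 19.128 in knockouts and 19.093 to 19.139 in wild type. On the plateau stood 3 of the 5 knockout and 3 of the 4 wild-type arrays, and the difference was -0.02 ± 0.12 (adjusted p = 1). Between the ages, the knockout difference was -0.28 ± 0.11 (adjusted p = 0.0752) and the wild-type difference -0.001 ± 0.12 (adjusted p = 1). The knockout difference was called without P0 knockout array 5 (-0.33, adjusted p = 0.0333) and without array 6 (-0.35, adjusted p = 0.0168). The part of the plateau and the ceiling in these small differences was not tested.

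Gp2, the main membrane-anchored glycoprotein of zymogen granules, showed the largest change among the 4 members below the ceiling on every array, and it was with age. P0 knockout arrays read 12.76, 15.94, 15.23, 15.46, 14.96 and 15.79, against 9.28, 10.78, 10.995, 10.89 and 13.12 on E18.5 knockout arrays. P0 knockout array 1 was the only P0 array of either genotype under 14, and it fell below E18.5 knockout array 5. The difference in knockouts was 4.01 ± 0.68, 16.1-fold higher at P0 (adjusted p = 0.00051), and 6 of 6 arrays were above the E18.5 mean.

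In wild type, Gp2 was 15.25, 15.13, 15.95, 15.25 and 17.27 on P0 arrays, against 11.80, 11.34, 10.28 and 13.27 on E18.5 arrays. Every P0 array was above every E18.5 array. The difference was 4.10 ± 0.75, 17.1-fold higher at P0 (adjusted p = 0.00375 by limma). The knockout change minus the wild-type change was -0.09 ± 1.01 (adjusted p = 1), with a wide 95% interval of -2.20 to 2.03.

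E18.5 knockout array 5 and E18.5 wild-type array 4 had the highest Gp2 values of their age, and also the 2 highest Pla2g1b values. In the sample descriptions these arrays carry the numbers 22 and 21, the last of a series in which P0 arrays run from 1 to 12 and E18.5 arrays from 13 to 22. These numbers do not overlap between the ages, so age and this number cannot be told apart. With that number as a covariate, a fit that reaches beyond the numbers of each age, the Gp2 difference was 6.05 in knockouts and 5.90 in wild type. Without the 4 arrays with goblet means above 9 it was 2.97 in knockouts, where 2 E18.5 arrays remained and the call was missed (adjusted p = 0.0534), and 4.63 in wild type (adjusted p = 0.00303).

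By genotype, no Gp2 difference was called. P0 knockouts averaged 15.02 ± 1.17 and P0 wild type 15.77 ± 0.90 (SD), a difference of -0.75 ± 0.68 (adjusted p = 0.768). E18.5 knockouts averaged 11.01 ± 1.37 and E18.5 wild type 11.67 ± 1.24, a difference of -0.66 ± 0.75 (adjusted p = 0.993). Single arrays set the size of both: the P0 difference was -0.29 without P0 knockout array 1 and -0.37 without P0 wild-type array 5. The E18.5 difference was -0.23 without knockout array 1, -1.19 without knockout array 5, -1.12 without wild-type array 3 and -0.13 without wild-type array 4. Within each group the arrays differed from each other by 2.14 to 3.84 on the log2 scale, the widest spread of the members measured on every array.

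Dmbt1, a large granule glycoprotein also called muclin in mice that is thought to help pack enzymes, had its lowest values in E18.5 knockouts. Those arrays read 16.49, 17.96, 18.23, 17.92 and 18.66, against 18.81, 18.60, 18.48 and 18.60 in E18.5 wild type. Array 1 stood far below all others, and array 5 lay within the wild-type range. The difference was -0.77 ± 0.29 (unadjusted p = 0.0161, adjusted p = 0.839 by limma, lower on 4 of 5 arrays) and was not called, and 0.0111 percent of genes were called in this comparison. Goblet means were 13.41, 9.10 and 13.21 on knockout arrays 1, 2 and 4 and 7.51 and 7.68 on knockout arrays 3 and 5. E18.5 wild-type array 4 had a goblet mean of 11.12 and a Dmbt1 signal of 18.60. Knockout array 1 also had a high muscle mean of 8.15. Without the goblet-rich arrays, which left only knockout arrays 3 and 5 beside wild-type arrays 1, 2 and 3, the difference was -0.19. Without E18.5 knockout array 1 alone it was -0.43. Dmbt1 had exactly 18.601 on 4 arrays, again a plateau of unstated origin, with 2 E18.5 wild-type, 1 P0 knockout and 1 P0 wild-type array. Of the other arrays, 8 lay above this value and 8 below. The part of this plateau in the Dmbt1 differences, by genotype or age, was not tested.

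At P0, Dmbt1 was 18.60, 18.20, 18.55, 18.53, 18.71 and 18.98 in knockouts and 19.11, 19.11, 18.60, 18.70 and 19.05 in wild type. The groups overlapped, and the difference of -0.32 ± 0.26 was not called (adjusted p = 0.749). With age, the knockout mean was 18.59 at P0 and 17.85 at E18.5, a rise of 0.74 ± 0.26 (1.67-fold, adjusted p = 0.0489). That call held without E18.5 knockout arrays 3 or 5 or P0 knockout array 2 and was lost without any other single array, with an adjusted p of up to 0.0985. Without E18.5 knockout array 1 the rise was 0.40 (adjusted p = 0.0877). Without the arrays with goblet means above 9, where only E18.5 knockout arrays 3 and 5 remained, it was 0.15 and was not called. With the goblet mean as a covariate it was 0.18 (adjusted p = 0.761). Goblet means were at most 7.01 at P0 and at least 7.13 at E18.5, so that fit cannot tell age from them. In wild type the difference was 0.29 ± 0.29 (adjusted p = 0.592).

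**Figure D3:**
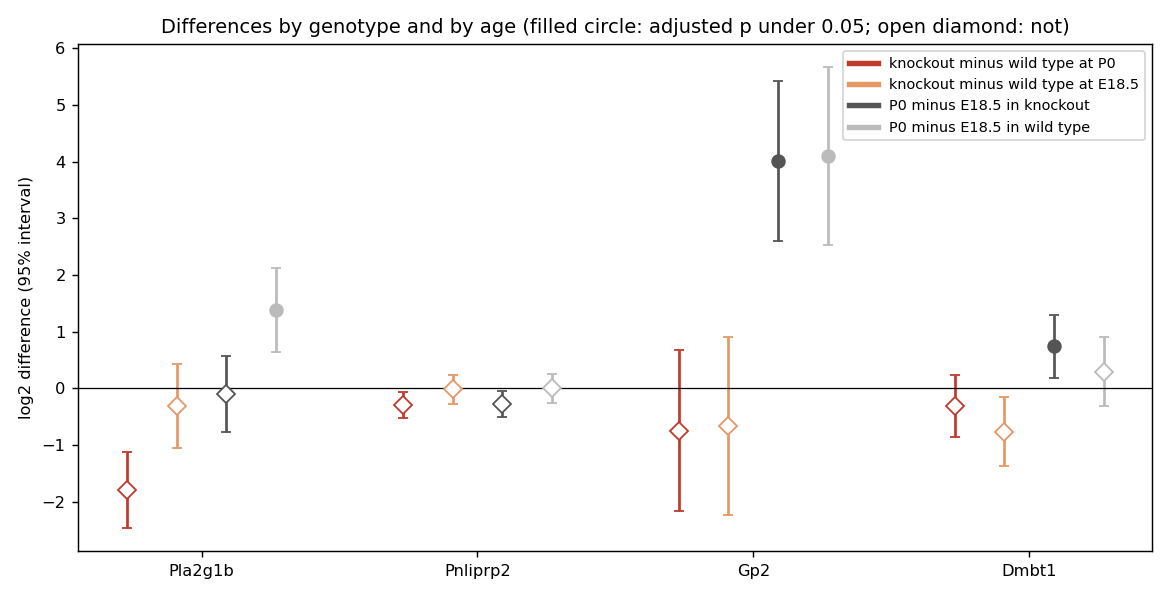
Log2 differences of 4 members by genotype at each age and by age in each genotype, with 95% intervals; filled circles are called at an adjusted p under 0.05 and open diamonds are not. The filled points are Gp2 with age in both genotypes at about 4, Pla2g1b with age in wild type at 1.38 and Dmbt1 with age in knockouts at 0.74.

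Counted over the 5 measured members, no genotype difference was called at P0 or at E18.5, nor averaged over both ages, where 0.0167 percent of genes were called. At an unadjusted p under 0.05, Pla2g1b and Pnliprp2 passed at P0, beside 1576 of all 17993 genes, and Dmbt1 passed at E18.5, beside 980. In the average over both ages, Pla2g1b (unadjusted p = 0.000327, adjusted p = 0.42 by limma) and Dmbt1 (0.0122 and 0.658) passed, beside 1180. For the change of the genotype difference with age, the background was 0 percent, and 1256 genes had an unadjusted p under 0.05. The median difference at P0 was -1.04 for the 2 enzymes measured and -0.32 for the 3 granule proteins, beside 0.005 over all tested genes. Zg16 was at the ceiling on every P0 wild-type array and could only be 0 or below, the members were chosen with the Pla2g1b result known, and the plateaus limit these medians further.

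With age in wild type, 2 members were called higher and 0 lower, beside 4.76 percent of all genes higher and 4.10 percent lower. In knockouts 2 were called higher and 0 lower, beside 11.3 percent higher and 11.7 percent lower. Gp2 was called in both genotypes, Pla2g1b in wild type and Dmbt1 in knockouts. These 2 age comparisons have no arrays in common, but each shares its P0 and its E18.5 arrays with the genotype comparisons.

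Other digestive enzymes of acinar cells were read in the same way. Of 27 listed proteases, amylases and other products, 21 had a probe set, and 9 were measured below the ceiling on at least 1 array. Several of these 9 had little room to vary. Prss2 was at the ceiling on 19 arrays, and Cela1, Cela2a and Cela3a repeated 19.537, 19.474 and 17.762 on many arrays. The part of these repeated values in the counts below was not tested. At an adjusted p under 0.05, limma called 0 by genotype at either age. At an unadjusted p under 0.05 there were 1 at P0 and 0 at E18.5, beside 1576 and 980 of all 17993 genes. At P0 the smallest p belonged to Ctrl, a chymotrypsin-like protease, which averaged 18.42 ± 0.56 in knockouts and 19.18 ± 0.40 in wild type (SD), a difference of -0.76 ± 0.24 (adjusted p = 0.416). With age, Serpini2, a protease inhibitor made by acinar cells, fell by 0.97 ± 0.25 in knockouts (adjusted p = 0.00936 by limma). In wild type no gene of the list was called, and Ctrc, chymotrypsin C, came nearest at 1.19 ± 0.40 (adjusted p = 0.0695).

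Genes of the granule membrane, of exocytosis and of secretagogue receptors numbered 28, of which 23 were tested. By genotype limma called 0, with 4 at P0 and 2 at E18.5 at an unadjusted p under 0.05. Among all 17993 genes, 1576 and 980 had such a p. At P0 the smallest p-values were those of Cuzd1, a zymogen granule membrane protein, at -0.97 ± 0.30 (adjusted p = 0.406), and of the apical mucin Muc1 at -0.68 ± 0.21 (adjusted p = 0.406). With age, 3 of the 23 rose and 4 fell in knockouts, where 11.3 percent of all genes rose and 11.7 percent fell. In wild type 0 rose and 2 fell, beside 4.76 and 4.10 percent of all genes, so these counts lie near the background. The small GTPase Rab26, which is linked to granule maturation, fell by 1.05 ± 0.14 in knockouts (adjusted p = 6.66e-05) and fell by 0.65 ± 0.15 in wild type (adjusted p = 0.0132). In knockouts Muc1 fell by 1.11 ± 0.21 (adjusted p = 0.0011), Rab27b, a small GTPase of secretory granules, fell by 0.47 ± 0.12 (adjusted p = 0.00916) and the vesicle fusion protein Vamp2 rose by 0.48 ± 0.15 (adjusted p = 0.0233). In wild type Snap23, a partner in membrane fusion, fell by 0.48 ± 0.12 (adjusted p = 0.0193).

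Of 9 listed transcription factors that drive acinar gene expression, all tested, 5 were called lower and 0 higher at P0 in knockouts, beside 11.7 percent of all genes lower. In wild type 4 were called lower and 0 higher, beside 4.10 percent. Ptf1a, the core subunit of PTF1, fell by 2.999 ± 0.53 in knockouts (adjusted p = 0.000714) and fell by 3.025 ± 0.59 in wild type (adjusted p = 0.00495). Rbpjl, the adult partner in PTF1, fell by 2.61 ± 0.29 in knockouts (adjusted p = 1.98e-05) and fell by 1.26 ± 0.32 in wild type (adjusted p = 0.0203). Bhlha15, also called Mist1, which organises the secretory apparatus, fell by 1.90 ± 0.30 in knockouts and fell by 1.79 ± 0.33 in wild type (adjusted p = 0.000284 and 0.0039). Gata4 fell by 0.65 ± 0.13 in knockouts (adjusted p = 0.0015) and Creb3l2 fell by 0.44 ± 0.12 in wild type (adjusted p = 0.0313). For knockouts only the 4 called genes that changed most are given with their tests. Creb3l2 was also lower on average at P0 in knockouts, where arrays read 7.63 to 8.16 at P0 and 8.07 to 8.47 at E18.5. Nr5a2, another regulator of acinar genes, was not called, at -0.36 ± 0.14 in knockouts (adjusted p = 0.0666) and 0.35 ± 0.15 in wild type (adjusted p = 0.165).

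Gp2 rose across the interval in which these regulators fell, and mesenchyme markers moved with age too. All 9 of those tested were above 0 in both genotypes. In knockouts 5 were called higher, beside 11.3 percent of all genes, and in wild type 2, beside 4.76 percent. Fn1, fibronectin, rose by 1.45 ± 0.19 in knockouts (adjusted p = 7.84e-05 by limma) and by 0.83 ± 0.21 in wild type (adjusted p = 0.0203). The mean of the 9 markers was 11.75 to 12.52 on P0 knockout arrays and 11.14 to 11.71 on E18.5 knockout arrays, and 12.04 to 12.32 on P0 wild-type arrays and 11.69 to 11.94 on E18.5 wild-type arrays, so the ages did not overlap in either genotype. The part of mesenchyme in the age differences of members and regulators was not tested.

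By genotype limma called 0 of the 9 regulators, with 3 at P0 and 0 at E18.5 at an unadjusted p under 0.05. The counts over all 17993 genes were 1576 and 980. Rbpjl at P0 read 9.81 to 10.64 in knockouts and 10.32 to 12.12 in wild type, a difference of -1.17 ± 0.29 (adjusted p = 0.176 by limma). P0 wild-type array 3, the one low in Pla2g1b, was also the lowest P0 wild-type array for Rbpjl (10.32), Cuzd1 (13.91), Ctrl (18.66) and Muc1 (12.62). Array 5 of the same group was high in Pla2g1b (16.41) but low in Rbpjl (10.69) and Cuzd1 (14.15). The liver mean was 9.64 on array 3 and 6.56 on array 5, the highest and the lowest of that group. Array 4 had a liver mean of 9.51 and read 16.7 for Pla2g1b, 12.12 for Rbpjl and 15.63 for Cuzd1. The part of neighbouring tissue in these differences was not tested beyond the covariate fits.

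**Figure D4:**
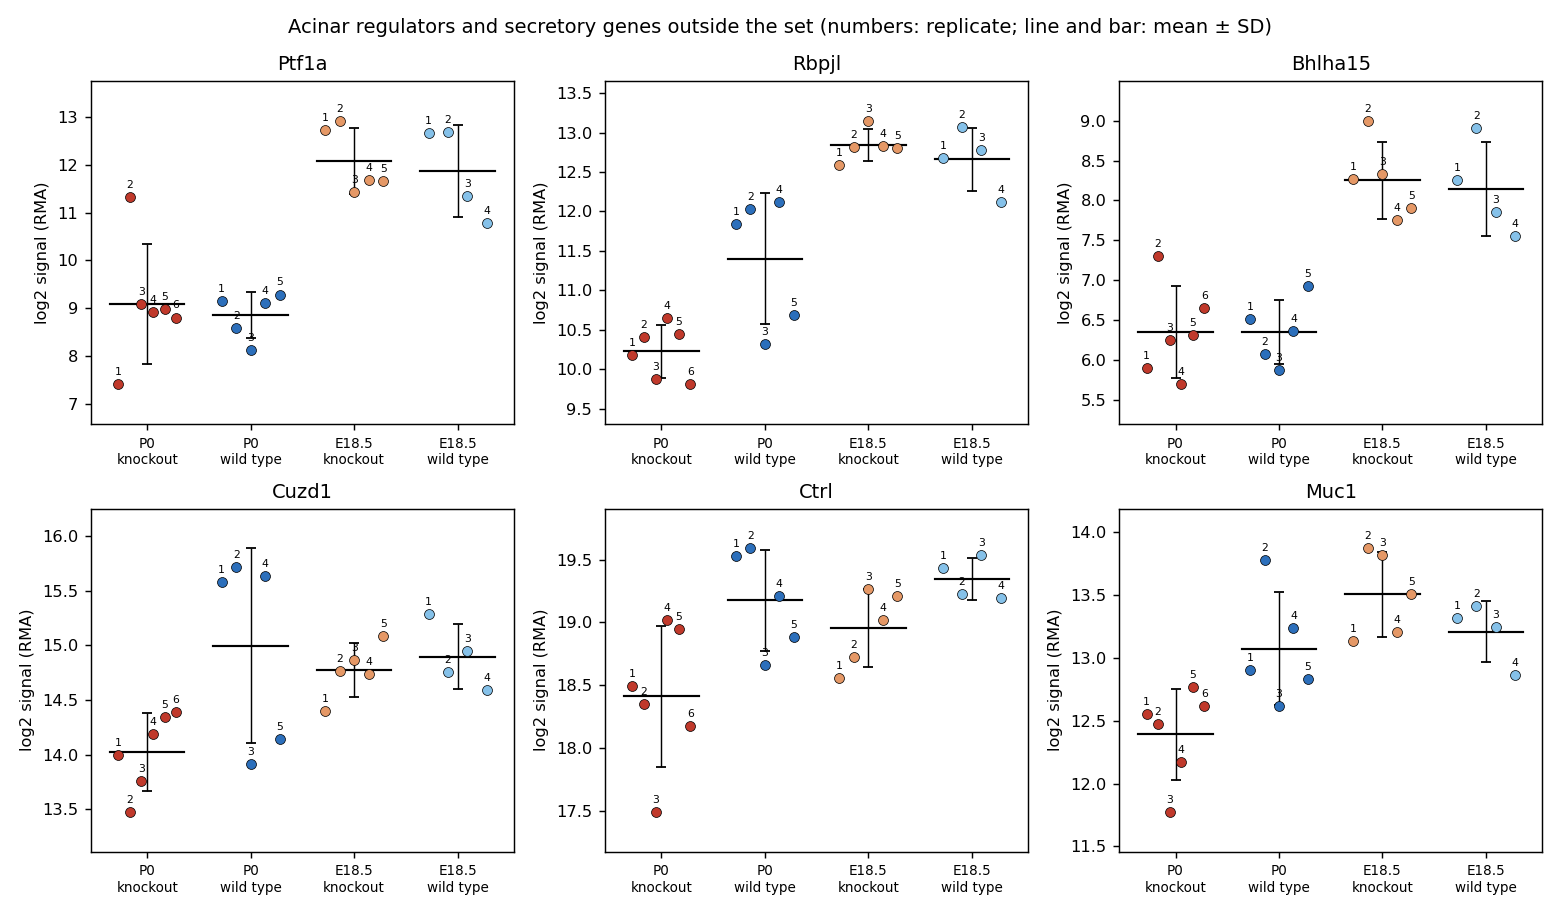
Log2 signal of the acinar regulators Ptf1a, Rbpjl and Bhlha15 and of the secretory genes Cuzd1, Ctrl and Muc1 on each array by group, with replicate numbers above the points and lines and bars for the group mean ± SD. The regulators are lower at P0 than at E18.5 in both genotypes, and P0 wild-type arrays 3 and 5 lie below the other wild-type arrays for Rbpjl and Cuzd1.

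Lipases outside the exocrine set numbered 25, of which 13 passed the signal filter. By genotype limma called 0, and 0 had an unadjusted p under 0.05 at either age, beside 1576 at P0 and 980 at E18.5 of all 17993 genes. With age, 3 of the 13 rose and 2 fell in knockouts, beside 11.3 and 11.7 percent of all genes, and 2 rose and 0 fell in wild type, beside 4.76 and 4.10 percent. Lpl, lipoprotein lipase, which frees fatty acids from circulating lipoproteins, rose by 1.16 ± 0.20 in knockouts (adjusted p = 0.000659) and by 0.96 ± 0.22 in wild type (adjusted p = 0.0142). Pnpla2, the lipase that starts the breakdown of stored fat, rose by 1.07 ± 0.21 in knockouts (adjusted p = 0.00181), with 0.65 ± 0.24 in wild type (adjusted p = 0.0967). Pla2g12a, a secreted phospholipase A2, fell by 0.77 ± 0.17 in knockouts (adjusted p = 0.00329), and Dagla, a diacylglycerol lipase, fell by 0.42 ± 0.11 (adjusted p = 0.0117). Pla2r1, a phospholipase A2 receptor, rose by 0.27 ± 0.07 in wild type (adjusted p = 0.0235).

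After removing group means, the genes most like each member over the 20 arrays were found among 12632 candidates, as a description with no test, since arrays share tissue makeup and normalisation. For Pla2g1b these were Gnai2, a G protein subunit (Pearson r 0.83, Spearman rho 0.74), Zfp362 (0.82 and 0.75) and Pls3, an actin-bundling protein (0.79 and 0.76). Without the 2 arrays on which Pla2g1b lay farthest from its median, r was 0.76, 0.76 and 0.72. For Gp2 they were Selenop, a selenium carrier (r 0.86, rho 0.79), Cxxc4 (0.85 and 0.88) and Haus4 (0.82 and 0.80), with r of 0.86, 0.81 and 0.77 without 2 arrays.

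For Dmbt1 the nearest genes were Scamp2, a secretory carrier membrane protein (r 0.88, rho 0.90), Ubb-ps (0.88 and 0.66) and Efhd2 (0.88 and 0.71), and r without 2 arrays was 0.85, 0.70 and 0.63. For Pnliprp2 they were Rpl7a-ps5 (r 0.85, rho 0.65), Rpl15-ps3 (0.85 and 0.57) and Selenow (0.85 and 0.83), and r without 2 arrays was 0.54, 0.53 and 0.72. The likeness of Pnliprp2 to both pseudogenes therefore rests largely on those 2 arrays, P0 knockout arrays 3 and 6.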

How the data were processed

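RNA of 20 mouse pancreas samples was measured on Affymetrix arrays. Values are log2 signals, which the authors obtained with RMA, and the software was Affymetrix Expression Console, version 1.4.1.46, per the submitters' processing notes. The origin of the ceiling at 19.932, which is log2 of 1000000, is not given in the sources used here. In the array annotation 30604 of 65956 probe sets had 1 gene symbol, while 2146 had more and 33206 had no symbol. Symbols were matched to RefSeq on GRCm38.p6. Groups were taken from the sample labels.

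A gene was tested if its signal exceeded the median of the array on 4 or more arrays, which kept 17993 of 30063, and 98 of them had the same value on every array. Group means for the 4 groups were estimated from all 20 arrays with limma (version 3.58.1, under R version 4.3.3), leaving 16 residual degrees of freedom. Tests were two-sided, with Benjamini-Hochberg adjustment within each contrast and calls at an adjusted p under 0.05. The fit was tested on simulated data. An error after ± is the SE of a log2 difference, except where SD is written. The number of arrays limits the precision.

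The members and gene lists were chosen with earlier results of these data known. Named were all members, the targeted gene, from each other list up to 4 called genes that changed most, or in lists without a call up to 4 with the lowest unadjusted p-values (marker lists are given mainly by their means), and the 3 genes most like each member measured on every array. Nr5a2 with age and the genes shown beside P0 wild-type array 3 were picked after their values were seen. Alternatives changed the filter, normalisation, variance moderation, weights, arrays in the fit, replicate block, covariates, probe set rule and threshold. Software for tables and figures was pandas 2.3.3, numpy 2.4.6, matplotlib 3.10.9 and Python 3.11.15.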

Additional observations from a re-analysis of the deposited data

Results flagged for a closer look

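Of the 17 sets of arrays checked, each 1 member in 1 group, 2 held an array far from the others of its group, where chance gives about 1 in 20. Gp2 on P0 knockout array 1 was 12.758, with the nearest P0 knockout at 14.959, a gap of 0.691 of the group's range. Pnliprp2 on E18.5 wild-type array 3 was 19.139, while the other 3 arrays of that group all had 19.093, so the gap of 1 was the whole range of a group on a plateau.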

How the results depend on the processing

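The Gp2 age difference kept its direction in 37 of 37 alternatives in each genotype (2.97 to 6.05 in knockouts, 3.63 to 5.90 in wild type), and its call in all but 1. The upper ends of both ranges came from the running number in the sample description. Neither that number nor the goblet mean overlaps between the ages, so fits with either cannot tell age from it. The P0 genotype difference of Pla2g1b stayed between -2.15 and -1.64. The count of members called at P0 was 1, Pla2g1b, at an adjusted p under 0.10, and 0 to 1 leaving out single arrays; averaged over both ages it was also 0 to 1. With age in wild type the count was 1 with the arrays compared alone, with the running number, the liver and intestinal means or the goblet mean as covariates, and 1 to 2 leaving out single arrays. With age in knockouts it was 3 at an adjusted p under 0.10, 1 without a signal filter, with the arrays compared alone, under each of those covariates and without arrays rich in intestinal or muscle markers, 0 without the goblet-rich arrays, and 1 to 2 leaving out single arrays. Dmbt1 accounts for most of this, with its call lost in 25 of 37. The goblet alternatives and the removal of constant genes were chosen after seeing the data.

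Several differences that were not called changed sign. At E18.5, leaving out arrays rich in intestinal or muscle markers gave Pla2g1b 0.043 and Gp2 0.53, and leaving out goblet-rich arrays gave Pla2g1b 0.314, Gp2 0.918 and Pnliprp2 0.002. The change of the genotype difference with age became 0.016 for Gp2 with cyclic loess and 0.157 with the running number, ran from -0.62 to 0.44 leaving out single arrays, and became -0.133 for Dmbt1 without goblet-rich arrays. Pnliprp2 with age in wild type became 0.017 with median centring, 0.016 with cyclic loess, 0.25 with the running number and 0.042 with the liver and intestinal means, and ran from -0.017 to 0.018 leaving out single arrays. With age in knockouts, the running number gave 0.176 for Pla2g1b and 0.011 for Pnliprp2, which 4 other alternatives called at a negative value, and Pla2g1b ran from -0.222 to 0.085 leaving out single arrays. The cause was not tested.

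Replicate numbers were not taken to pair the arrays, since not every pair correlated over 0.1: same-numbered deviations correlated at 0.09 to 0.23 at E18.5, over 0.1 in 3 of 4 pairs, and at -0.03 to 0.24 at P0, over 0.1 in 2 of 5. Of the paired arrays, 6 of 8 at E18.5 and 2 of 10 at P0 correlated best with their own number. With the replicate block, 0 members were called by genotype, 2 with age in wild type and 2 with age in knockouts, where Pnliprp2 (-0.35, adjusted p = 0.0205 by limma) took the place of Dmbt1 (0.66, adjusted p = 0.114). The block gave 0.068 for the Gp2 change of genotype difference with age, a change of sign, and -1.72 for Pla2g1b at P0.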
